A study of Mus musculus with 72 samples.

Results

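These 7 LAM-HTGTS libraries hold junctions of 1 Cas9 break on chromosome 6 in wild-type mouse neural stem and progenitor cells: 3 libraries treated with aphidicolin (Aph) and 4 treated with aphidicolin plus ART558 (Aph + ART558). They were taken by their labels from the 60 LAM-HTGTS libraries among the 72 samples of the series. LAM-HTGTS starts from a primer beside a cut made on purpose, the bait, and reads across the junction into whatever sequence, the prey, the cut end was joined to. The cells were primary cultures from brains of C57BL/6J embryos, grown without a gene deletion or transgene, and nucleofected with a plasmid for SpCas9 and the guide. Both groups received 0.5 µM aphidicolin for 72 h and then 0.25 µM for 24 h, and the second group received ART558 as well, at 5 µM and then 2.5 µM over the same periods. No wild-type library without aphidicolin was analysed here, so every comparison is of ART558 on top of aphidicolin.

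Aphidicolin slows replicative DNA polymerases and at low dose causes replication stress. ART558 inhibits DNA polymerase theta, the enzyme of theta-mediated end joining, which pairs short stretches of identical bases (micro-homology) on the broken ends and extends from them, sometimes leaving templated insertions. Non-homologous end joining, the main route in wild-type cells, joins ends with little or no micro-homology. Recurrent DNA break clusters (RDCs) are regions, mostly long neural genes, in which breaks gather under replication stress in neural progenitors. The comparisons ask how junction structure and junction location differed when polymerase theta was inhibited in cells that have non-homologous end joining.

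The guide, the bait and the genome past the cut are shown because each junction below was measured against them. All lie on the minus strand of chromosome 6 in GRCm38/mm10, 6422 bp from the nearest gene, Foxi3, a forkhead transcription factor gene in which no junction is described here. In the guide, at chr6:70950103-70950125 with its PAM, the capitals mark the PAM. In the bait, at chr6:70950109-70950206, the capitals mark the nested primer. The last line gives the bases that follow the cut, at chr6:70950049-70950108.
guide: gagggttggaaatgctcgtaTGG
bait: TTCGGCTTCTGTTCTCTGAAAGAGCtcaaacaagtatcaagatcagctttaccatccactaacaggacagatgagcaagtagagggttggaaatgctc
past the cut: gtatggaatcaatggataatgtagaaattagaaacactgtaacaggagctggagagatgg

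A bait that was not trimmed is 98 bp long from the primer start to the cut. Micro-homology was the number of bases at the junction that align to both bait and prey, from 0 bp (direct joining) to 10 bp, and bases that align to neither counted as an insertion. Junctions within 1 Mb of the cut on chromosome 6 were kept apart from those farther away or on other chromosomes, which are called translocations.

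Small deletions found in most libraries show what micro-homology looks like at this break. The joined sequences below were built from the reference at the bait end and prey start that the reads gave, with the micro-homology in capitals.
deletion of 14 bp: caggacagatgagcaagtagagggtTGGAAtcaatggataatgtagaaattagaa
deletion of 17 bp: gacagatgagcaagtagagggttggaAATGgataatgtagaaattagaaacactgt
deletion of 47 bp: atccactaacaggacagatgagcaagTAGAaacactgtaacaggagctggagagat
deletion of 46 bp: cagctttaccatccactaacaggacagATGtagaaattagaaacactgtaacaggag
The deletion of 14 bp, with 5 bp of micro-homology, had 11 reads in all 7 libraries. Its reads were 1, 1 and 3 in Aph replicates 1 to 3, and 3, 1, 1 and 1 in Aph + ART558 replicates 1 to 4. The deletion of 17 bp, with 4 bp, had 8 reads in all 7 libraries. That of 47 bp, also with 4 bp, had 12 reads in 6 libraries, and that of 46 bp, with 3 bp, had 14 reads in 5 libraries. These joints were thus recovered with the inhibitor as well as without it, in counts too small to compare.

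The deposited junctions numbered 1592, 943 and 1994 in Aph replicates 1 to 3, and 2327, 1289, 1870 and 1955 in Aph + ART558 replicates 1 to 4. Of these 11970 junctions, 11769 lay on chromosomes 1 to 19, X and Y and were counted. Translocations made up 1407, 764 and 1766 of them with Aph, and 1880, 939, 1596 and 1585 with Aph + ART558.

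Many of these reads repeated one another. Reads whose sequence after the bait was the same, allowing 3 mismatches in 25 bases, were grouped into read families. The translocations with Aph fell into 238, 177 and 224 families, which gives 5.91, 4.32 and 7.88 reads per family. With Aph + ART558 they fell into 415, 307, 193 and 341 families, or 4.53, 3.06, 8.27 and 4.65 reads per family. The 8 wild-type libraries with a bait on chromosome 14 held 1.25 to 1.85 reads per family, and the 4 Xrcc4/p53-deficient libraries with the same chromosome 6 bait and the same treatments held 1.11 to 2.04. Reads of 1 family were often placed at many positions of the genome, so counting each position once did not remove the repetition: 43.0% to 76.3% of a library's translocation reads lay in families placed in several places.

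The 4 Aph + ART558 libraries also shared junctions with each other. A pair of them shared 5 to 123 distinct translocation junctions outside repeat reads, up to 19.1% of the smaller library and up to 10.6% of the larger. Pairs of Aph libraries shared 0 to 5, pairs across treatments 0 to 11, and pairs of chromosome 14 libraries 0 to 9. Counted as families outside repeat reads, a pair of Aph + ART558 libraries shared 3.07% to 47.5% of those of the library with fewer. Aph pairs shared 0.575% to 4.11%, and pairs across treatments 0% to 6.97%. Of 1274 families outside repeat reads, 284 (22.3%) were in at least 2 libraries, and 246 of these in at least 2 Aph + ART558 libraries. In the shared families the Aph + ART558 library with most reads held a median of 81.8% of the Aph + ART558 reads. Within 1 Mb of the cut, 123 of 400 families were in at least 2 libraries, and 15 in at least 5. The labels and methods describe separate replicates, and all 7 libraries came from 1 sequencing run. How the shared junctions arose was not tested. The main results are therefore given for reads as deposited and for families counted once per library, and some also for families counted once in all, in the library that holds most of their reads.

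**Figure D1:**
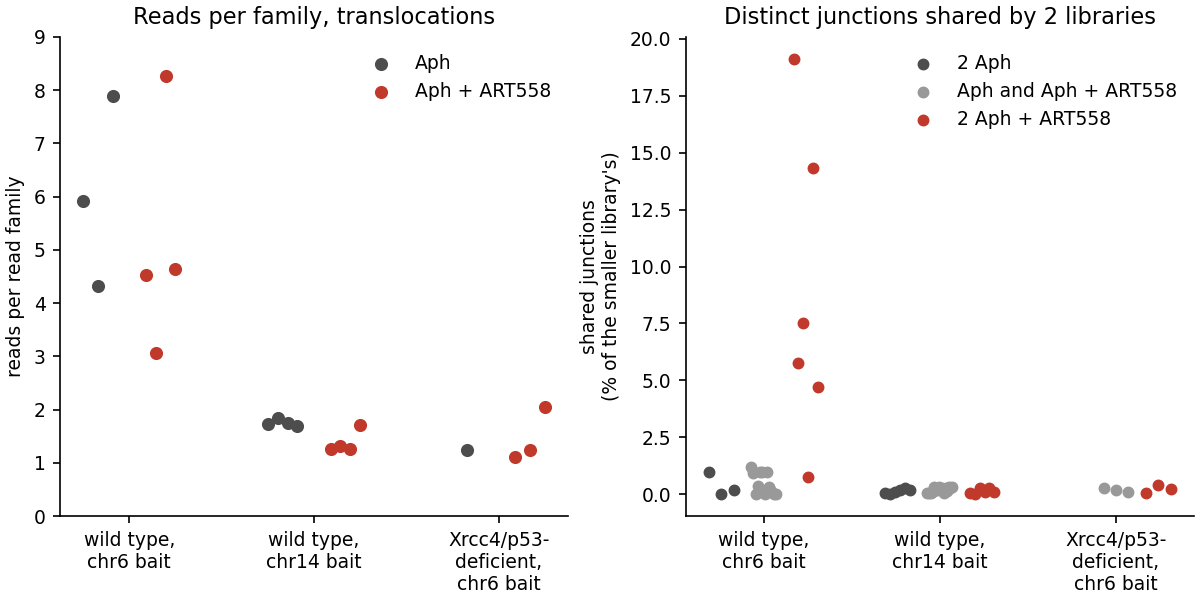
Left, reads per read family in translocations for each library (points) of 3 sets of libraries. Right, distinct junctions shared by each pair of libraries as a percent of the smaller library. The wild-type chromosome 6 libraries lie at 3.06 to 8.27 reads per family, above all others, and pairs of Aph + ART558 libraries share up to 19.1%.

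The two-sided exact permutation test used here doubles the smaller tail. With 3 libraries against 4 it cannot give a p below 0.0571, so no difference between the treatments at this bait passes 0.05. That p is reached by groups whose ranges do not overlap. Of 23 measures tested, 5 (21.7%) did not overlap in reads, 7 (30.4%) in families and 8 (34.8%) in families counted once in all. Of the 23, 0 kept their ranges apart in each of the 5 countings run, which included distinct positions and families without repeat reads. Adjusted over the 23, the lowest p was 0.263 in reads, 0.188 in families and 0.164 in families counted once in all. These shares are the background for each range that is said not to overlap. With families counted once per library, a family shared by several Aph + ART558 libraries counts in each of them. These libraries are then not independent of each other, and the SD and p-values do not allow for this.

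Direct joining in translocations had a lower mean with ART558 in each counting. In reads, 47.5%, 33.7% and 32.7% of the Aph junctions with 0 to 10 bp had no micro-homology, against 30.3%, 38.4%, 32.0% and 30.2% with Aph + ART558. The groups overlapped, with means of 38.0 ± 8.30% (SD, n = 3) and 32.7 ± 3.86% (n = 4; exact permutation p = 0.343). Without Aph replicate 1 the difference went from -5.24 to -0.455 points. In families the shares were 38.6%, 37.0% and 36.2% with Aph, and 34.9%, 34.0%, 28.9% and 34.8% with Aph + ART558. Each Aph + ART558 library was below each Aph library, at 33.2 ± 2.87% against 37.2 ± 1.21%, a difference of -4.09 points (exact permutation p = 0.0571, adjusted 0.188). With families counted once in all the means were 38.7% and 33.1%, again without overlap.

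Joints with 2 to 4 bp of micro-homology, short enough to be the kind that polymerase theta is known to use, took the larger share of families with ART558. Their shares of families were 25.9%, 29.1% and 27.7% with Aph and 31.4%, 31.5%, 31.9% and 30.5% with Aph + ART558. The means were 27.6 ± 1.62% and 31.3 ± 0.592%, without overlap (exact permutation p = 0.0571). In reads the means were 27.1 ± 9.71% and 23.7 ± 4.66%, in the opposite order and overlapping (exact p = 0.629). One family accounts for much of the high Aph value in reads: 52 of the 107 reads with 3 bp in Aph replicate 2 were of 1 family, placed at 55 positions with its other reads.

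The remaining lengths overlapped between the groups in reads and in families. Joints with 1 bp held 26.3 ± 9.67% of reads with Aph and 33.5 ± 10.6% with Aph + ART558, and 25.7 ± 1.95% and 27.9 ± 3.33% of families. Joints with 5 to 10 bp held 8.56 ± 2.53% and 10.1 ± 4.61% of reads, and 9.45 ± 2.49% and 7.68 ± 1.41% of families. Mean micro-homology was 1.56 ± 0.126 bp with Aph and 1.60 ± 0.335 bp with Aph + ART558 in reads (exact p = 0.857), and 1.65 ± 0.119 and 1.58 ± 0.0897 bp in families (exact p = 0.400). Of the 11 lengths taken singly, 0 (0%) had ranges that did not overlap in reads, at a lowest exact permutation p of 0.229. In families 1 length (9.09%), 0 bp, did not overlap (exact p = 0.0571, adjusted 0.471). With families counted once in all, 0 bp and 5 bp did not overlap, and 5 bp held 2.58 ± 0.500% with Aph and 3.89 ± 0.644% with Aph + ART558 (exact p = 0.0571, adjusted 0.314).

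**Figure D2:**
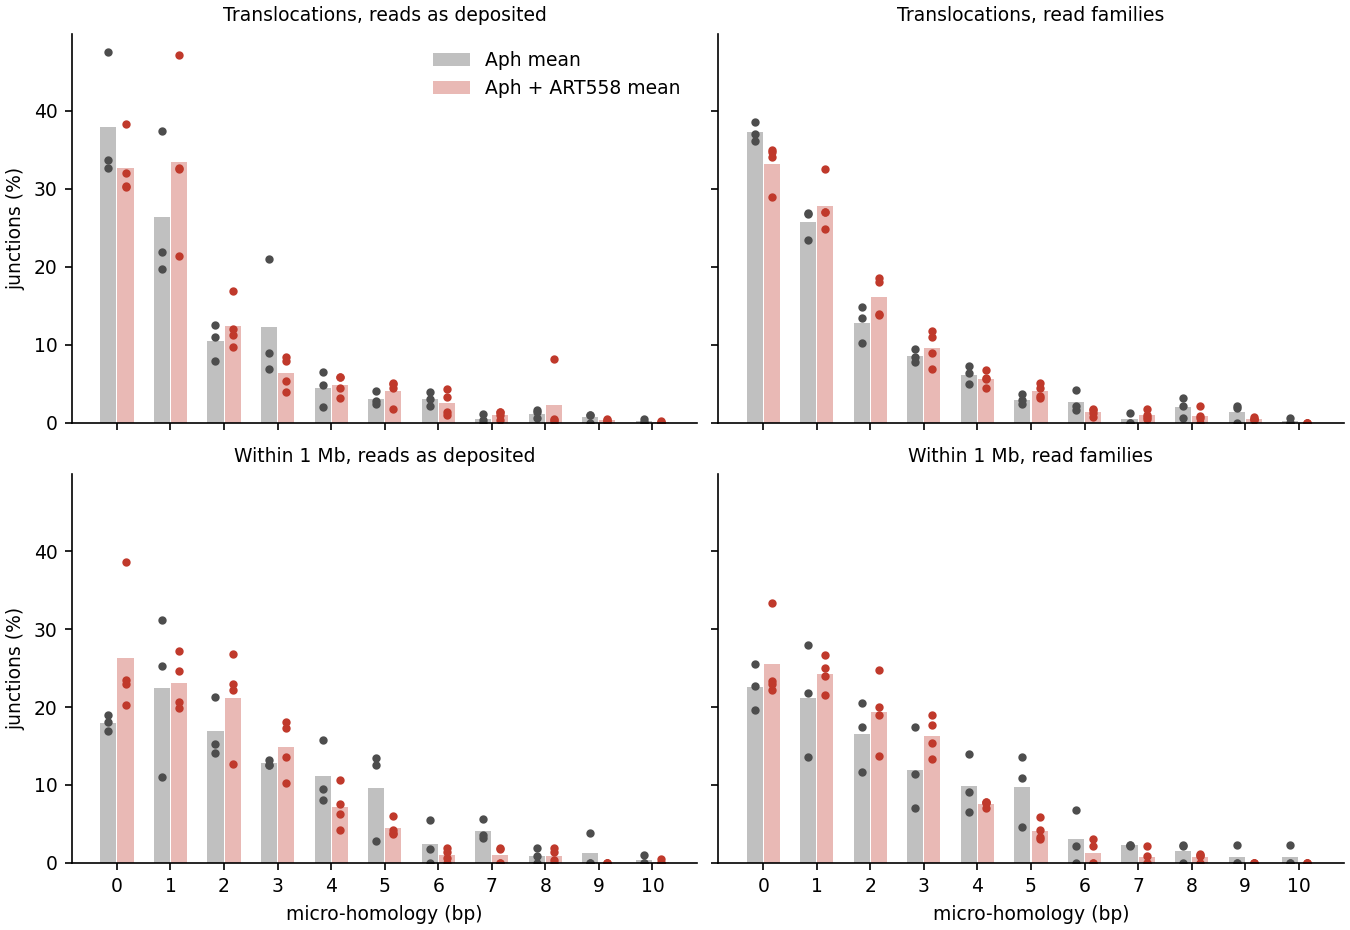
Share of junctions (%, y axis) at each micro-homology length from 0 to 10 bp (x axis), for translocations (top) and junctions within 1 Mb of the cut (bottom), in reads (left) and read families (right). Bars are group means and points are libraries. At 0 bp the SD with Aph goes from 8.30% in reads to 1.21% in families in translocations, and from 0.973% to 3.01% within 1 Mb.

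Within 1 Mb of the cut the order of the groups depended on the counting. In reads, direct joining was 18.9%, 16.98% and 18.1% with Aph and 23.5%, 20.3%, 38.6% and 23.005% with Aph + ART558. These ranges did not overlap (18.0 ± 0.973% against 26.3 ± 8.26%, exact permutation p = 0.0571). Without Aph + ART558 replicate 3 the difference went from 8.34 to 4.27 points. In families they overlapped, at 22.6 ± 3.01% and 25.5 ± 5.26% (exact p = 0.457), and with families counted once in all the order turned, to 28.4 ± 0.330% and 22.5 ± 6.87% (exact p = 0.229). Micro-homology of 7 bp was the other length whose ranges did not overlap in reads (2 of 11, 18.2%), at 4.14 ± 1.34% and 0.943 ± 1.09%. The Aph values were 4, 6 and 4 reads, all of 1 read family in each library. In families 0 of 11 lengths (0%) kept apart, at a lowest exact permutation p of 0.114. Micro-homology of 2 bp or more was in 42.5 ± 14.2% of deletions under 200 bp with Aph and 35.9 ± 3.24% with Aph + ART558 in reads (exact p = 0.571), and in 49.9 ± 10.6% and 39.6 ± 2.95% in families (exact p = 0.229).

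Insertion shares overlapped between the groups in each counting. In translocations they held 36.7%, 33.1% and 47.3% of the Aph reads and 46.8%, 30.2%, 34.8% and 47.6% of the Aph + ART558 reads. The means were 39.0 ± 7.40% and 39.9 ± 8.65% (exact p = 1). In families the means were 31.1 ± 4.25% and 25.2 ± 3.797% (exact p = 0.114), and in families counted once in all 29.7% and 29.7%. Within 1 Mb, 34.1 ± 1.59% of Aph reads and 34.3 ± 1.75% of Aph + ART558 reads had an insertion, and 22.03 ± 5.21% and 22.2 ± 2.29% of families.

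In translocations the insertion lengths overlapped as well. In translocation families, 1 bp was inserted in 4.18 ± 2.52% with Aph and 3.82 ± 1.25% with Aph + ART558. Insertions of 10 bp or more, long enough to hold copied sequence, were in 14.1 ± 1.40% and 11.3 ± 2.03% of families (exact p = 0.114). Within 1 Mb, insertions of 2 to 3 bp were in 8.09%, 1.89% and 6.25% of Aph reads and 9.002%, 9.27%, 11.7% and 8.31% of Aph + ART558 reads. They were 1 of 3 of the 11 bait-end and insertion classes (27.3%) whose ranges did not overlap in reads. Without Aph replicate 2 the difference went from 4.17 to 2.41 points. In families the ranges overlapped, at 3.38 ± 3.28% and 6.65 ± 0.946% (exact p = 0.171).

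Part of the insertions came from reads in which a run of G followed the bait. They were 44 of 516, 51 of 253 and 347 of 836 insertion reads in the Aph translocations, and 192 of 879, 71 of 284, 39 of 556 and 299 of 754 with Aph + ART558. Reads with a G run made up 3.34% to 19.7% of the Aph translocations and 2.76% to 19.4% of the Aph + ART558 translocations, and 96.9% of them (1043 of 1076) counted as insertions. A run of G is also what the sequencer writes when a cluster gives no signal, and the part of this in these reads was not tested. Without repeat reads of this and 2 other kinds (telomeric and dinucleotide repeats), insertions were in 23.8 ± 3.58% of Aph families and 19.7 ± 4.76% of Aph + ART558 families (exact p = 0.286).

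Telomeric repeats were the other abundant kind of prey. They held 10.5%, 2.36% and 12.5% of Aph translocations and 9.57%, 1.70%, 22.5% and 12.4% of Aph + ART558 translocations. In the wild-type chromosome 14 libraries they held at most 0.231%, and in the Xrcc4/p53-deficient chromosome 6 libraries at most 0.0773%. The 1138 telomeric reads fell into 62 family counts, 3.44 ± 2.00% of Aph and 3.40 ± 1.27% of Aph + ART558 families (exact p = 0.971). Reads of a repeat resemble each other after the bait, so these families may join separate molecules. The largest was a family of 259 reads in Aph + ART558 replicate 3, which the alignment placed at 240 positions on 21 chromosomes. Its bait had lost 59 bp. In the largest telomeric family of Aph + ART558 replicate 1, of 66 reads placed on 18 chromosomes, the bait ran 1 bp past the cut. The repeat is that of mammalian chromosome ends, and copies of it also lie inside chromosomes, so the reads do not tell which was joined.

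Around the cut, small deletions had a higher mean share of all junctions with ART558. Deletions with the prey under 200 bp past the cut held 5.13%, 7.69% and 6.13% of Aph junctions and 9.91%, 14.4%, 6.57% and 10.98% of Aph + ART558 junctions in reads. Aph + ART558 replicate 3 lay within the Aph range, and the means were 6.32 ± 1.29% and 10.5 ± 3.22% (exact permutation p = 0.114). In families they were 12.2 ± 1.30% and 13.9 ± 1.56% (exact p = 0.229), and with families counted once in all 6.50 ± 1.63% and 11.5 ± 1.84%, without overlap. Deletions of 200 bp to 10 kb held 2.36 ± 2.05% and 3.48 ± 1.65% of reads, and 3.56 ± 1.33% and 5.86 ± 0.958% of families (exact p = 0.114). The difference of 1.12 points in reads ranged from 0.295 to 2.27 points when each library was left out. Deletions of 10 kb to 1 Mb were rare, with 8, 4 and 0 reads in the Aph libraries and 2, 0, 0 and 1 in the Aph + ART558 libraries.

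The small deletions had longer medians with ART558 in reads and in families. The median length of deletions under 200 bp was 33, 43 and 40 bp in the Aph libraries and 47, 55, 56 and 54 bp in the Aph + ART558 libraries in reads. In families it was 35, 37.5 and 28.5 bp against 42, 54, 55 and 47.5 bp. The ranges did not overlap in either, and the differences were 14.3 and 15.96 bp (exact permutation p = 0.0571 for both, adjusted over 9 measures 0.171 and 0.257). With families counted once in all, Aph + ART558 replicate 1 had a median of 27.5 bp, below the Aph libraries (28.5 to 32 bp), and the others had 48 to 61.5 bp. In reads the bait side of these deletions lost a median of 17, 19 and 15 bp with Aph and 20, 20.5, 21 and 20 bp with Aph + ART558, without overlap. In families the bait side overlapped (exact p = 0.400), and the prey side lost 15, 23.5 and 12 bp against 20, 27, 26 and 24.5 bp.

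Over all junctions within 1 Mb, more bait ends were cut back by 21 bp or more with ART558. In reads, 31.2%, 30.8% and 28.1% of the Aph bait ends had lost that much, against 38.4%, 43.8%, 56.7% and 47.2% with Aph + ART558. In families the shares were 32.1%, 33.3% and 24.6%, against 36.4%, 42.4%, 50.8% and 38.3%. Each Aph + ART558 library lay above each Aph library in both, by 16.5 points in reads and 11.9 points in families between the means (exact permutation p = 0.0571 for both, adjusted over the 11 classes 0.210 and 0.314). With families counted once in all the means were 27.0 ± 1.79% and 38.8 ± 9.62%, and the ranges overlapped.

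Losses of 11 to 20 bp were in the opposite order in reads. Ends that had lost 11 to 20 bp were 34.1%, 28.9% and 34.4% of Aph reads and 20.9%, 17.3%, 18.2% and 18.4% of Aph + ART558 reads, without overlap. In families they were 28.5 ± 7.16% and 20.4 ± 1.93%, and overlapped (exact p = 0.171). Bait ends that reached or passed the cut were 14.2 ± 3.81% of Aph families and 8.50 ± 1.51% of Aph + ART558 families, without overlap (exact permutation p = 0.0571). In reads they were 9.74 ± 2.58% and 7.67 ± 2.15%, and overlapped (exact p = 0.343). The mean loss within 1 Mb was 17.1 ± 1.14 bp with Aph and 20.4 ± 3.02 bp with Aph + ART558 in reads (exact p = 0.171), and 16.1 ± 1.51 and 19.2 ± 2.46 bp in families (exact p = 0.114).

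In translocations the bait-end losses of the groups overlapped. The mean loss was 14.6, 15.2 and 9.13 bp in the Aph libraries and 12.6, 11.2, 23.9 and 9.98 bp in the Aph + ART558 libraries in reads. Aph + ART558 replicate 3, at 23.9 bp, is the library with the telomeric family whose bait had lost 59 bp. In families its mean loss was 14.4 bp, and the group means were 12.3 ± 0.619 and 12.8 ± 1.31 bp (exact p = 0.571). Full-length bait ends held 38.3 ± 3.83% of Aph and 39.4 ± 2.81% of Aph + ART558 translocation families (exact p = 0.686). Of the 11 bait-end and insertion classes in translocations, 0 (0%) had ranges that did not overlap in reads or in families, at a lowest exact permutation p of 0.114 in each.

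**Figure D3:**
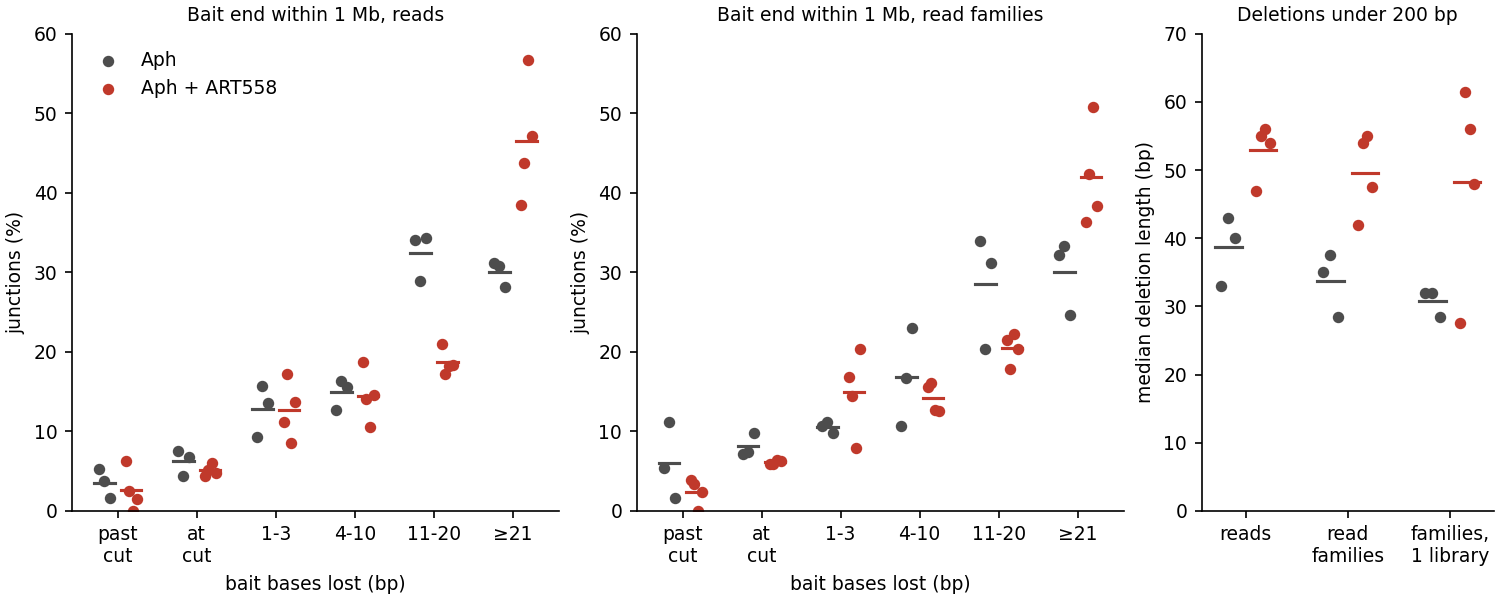
Left and centre, share of junctions within 1 Mb of the cut (%, y axis) by the number of bait bases lost (x axis), in reads and in read families. Right, median length (bp) of deletions under 200 bp in 3 countings. Points are libraries and short lines are group means. Losses of 21 bp or more lie at 28.1% to 31.2% with Aph and 38.4% to 56.7% with Aph + ART558 in reads.

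Inversions past the cut, in which the prey is joined in the opposite orientation, took a smaller share with ART558. Within 10 kb past the cut there were 22, 4 and 8 inverted reads among 130, 118 and 142 with Aph, and 7, 2, 3 and 5 among 310, 255, 162 and 268 with Aph + ART558. The inverted share was 16.9%, 3.39% and 5.63% with Aph and 2.26%, 0.784%, 1.85% and 1.87% with Aph + ART558, without overlap (8.65 ± 7.25% and 1.69 ± 0.632%, exact permutation p = 0.0571). Without Aph replicate 1 the difference went from -6.96 to -2.82 points. The counts behind this are very small: 3, 2 and 2 families with Aph, and 2, 2, 1 and 1 with Aph + ART558. As shares of 46, 41 and 46 and of 113, 91, 44 and 98 families they came to 6.52%, 4.88% and 4.35%, and to 1.77%, 2.20%, 2.27% and 1.02%, again without overlap. In reads the 95% Wilson interval reached from 1.33% to 8.39% in Aph replicate 2 and from 0.632% to 5.30% in Aph + ART558 replicate 3, and it covers counting error only. With each distinct position counted once, the ranges overlapped. The inversions lay 48 to 5019 bp past the cut with Aph and 1043 to 4599 bp with Aph + ART558.

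On the bait side of the cut the order was the opposite. Junctions within 1 Mb on that side held 2.15%, 3.25% and 2.45% of all Aph junctions and 3.97%, 4.47%, 4.56% and 3.33% of all Aph + ART558 junctions. In families they held 3.90 ± 1.02% and 6.57 ± 0.748%, and the ranges did not overlap in either counting (exact permutation p = 0.0571), nor with families counted once in all (3.62 ± 1.497% and 5.92 ± 0.464%). Counting distinct positions, they overlapped. Both orientations were found in each library, and the prey had the bait's orientation in 56.3 ± 17.6% of these families with Aph and 56.3 ± 13.8% with Aph + ART558. In families the median distance from the cut was 74, 241 and 134 bp with Aph and 349, 349, 421 and 447.5 bp with Aph + ART558, without overlap. These medians rest on 8, 10 and 13 families with Aph and 38, 25, 19 and 28 with Aph + ART558, some of them in several libraries. In reads it was 402, 632.5 and 232 bp against 349, 423, 411.5 and 254 bp, with the lower mean in Aph + ART558.

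Most junctions of both groups joined the cut to another chromosome. These held 78.2%, 72.4% and 82.7% of Aph junctions and 71.4%, 60.7%, 79.9% and 73.8% of Aph + ART558 junctions (exact p = 0.343). The difference of -6.33 points ranged from -9.15 to -2.74 points when each library was left out. In families, junctions to other chromosomes held 67.5 ± 3.51% and 59.9 ± 4.04% (exact p = 0.114), and with families counted once in all 71.8 ± 2.87% and 62.6 ± 4.24%, without overlap. Chromosome 6 beyond 1 Mb held 9.56 ± 1.83% and 10.1 ± 3.25% of reads (exact p = 0.914). There the prey lay past the cut, towards lower coordinates, in 43.3%, 43.8% and 39.7% of Aph reads and 52.9%, 62.01%, 48.8% and 58.1% of Aph + ART558 reads, without overlap. In families the shares were 50%, 30% and 38.5% against 53.9%, 59.2%, 48.0% and 63.6%, and overlapped (exact p = 0.114). Protein-coding gene bodies held 42.6 ± 3.605% and 42.9 ± 2.15% of the reads on other chromosomes (exact p = 0.800).

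**Figure D4:**
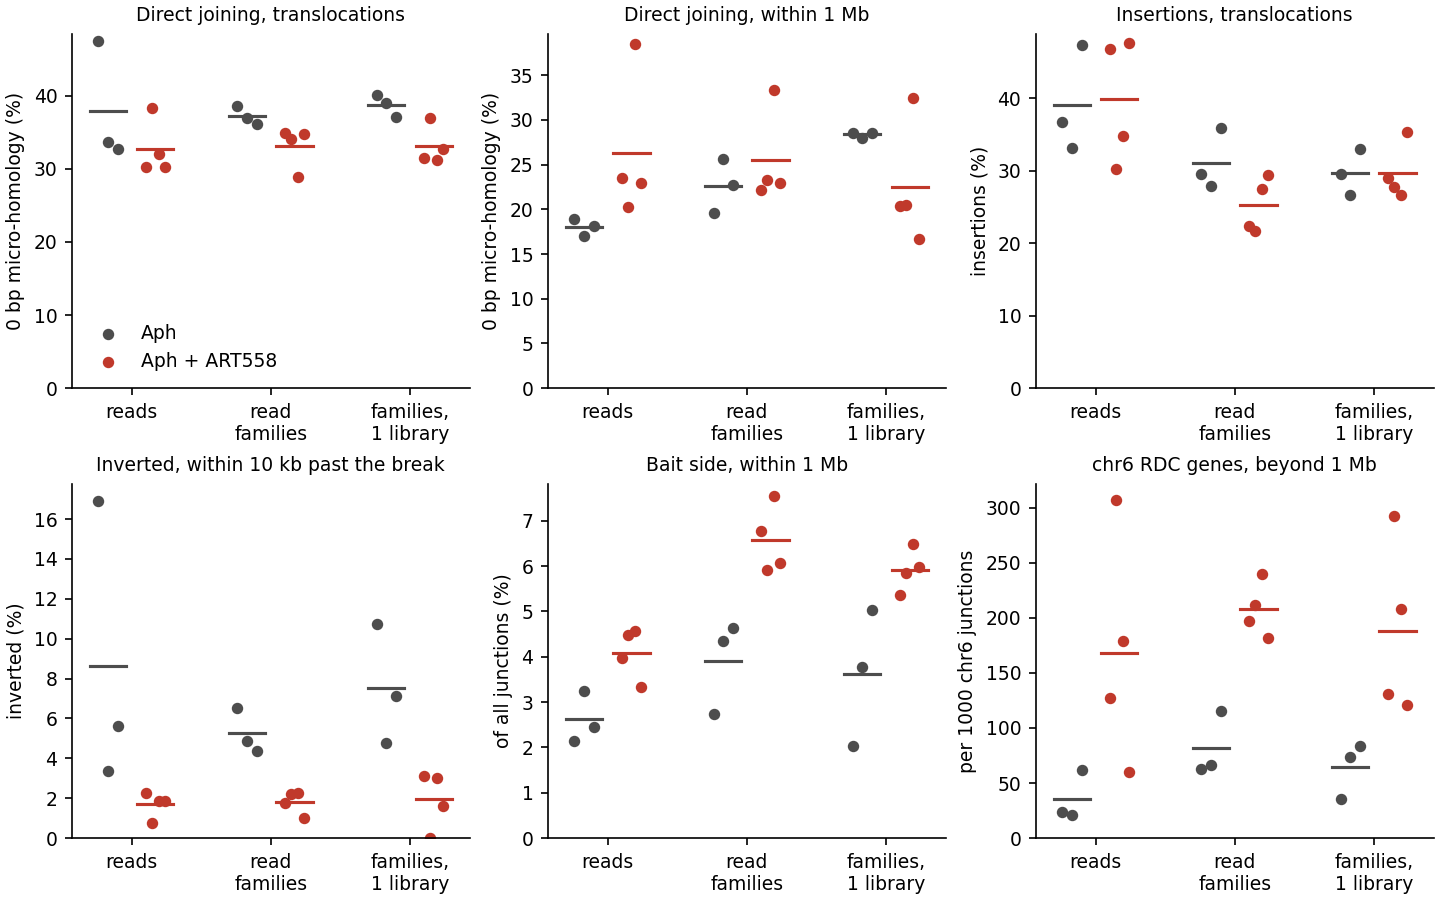
Measures (y axes with their units) in 3 countings (x axis): reads as deposited, families counted once per library, and families counted once in all. Points are libraries and short lines are group means. The inverted share and the bait-side share keep the groups apart in all 3, at 3.39% to 16.9% against 0.784% to 2.26% for the inverted share in reads. Both overlap with each distinct position counted once, which is not drawn.

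RDC genes were taken from the study's list of genes by replication timing class, so the list is not independent evidence of a direction. It does not hold each RDC that the study works with. Of its 105 genes 104 were found in the annotation, 12 of them on chromosome 6, and 73 held a junction in at least 1 of the 7 libraries. On the other chromosomes their density was 0.467, 0.211 and 0.396 junctions per 1000 and per Mb with Aph, and 0.486, 0.574, 0.671 and 0.652 with Aph + ART558. The reads did not overlap (0.358 ± 0.132 and 0.596 ± 0.0841, exact permutation p = 0.0571). The families did, at 0.570 ± 0.324 and 0.756 ± 0.169 (exact p = 0.457), and with families counted once in all the means were 0.587 and 0.618 (exact p = 1). The family values come from 15, 5 and 5 families with Aph and 14, 13, 12 and 18 with Aph + ART558. RDC genes in late constant-timing regions (CTR) were at 0.864 ± 0.522 and 1.06 ± 0.392 in families (exact p = 0.743), and those in timing transition regions (TTR) at 0.331 ± 0.221 and 0.496 ± 0.305 (exact p = 0.571).

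On chromosome 6 itself, RDC genes took a larger part of the distant junctions with ART558. Per 1000 junctions of chromosome 6 beyond 1 Mb, they held 23.4, 20.8 and 61.6 with Aph and 127, 307, 179 and 59.9 with Aph + ART558 in reads, where replicate 4 lay just below the highest Aph library (exact permutation p = 0.114). In families they held 62.5, 66.7 and 115 against 197, 211, 240 and 182, without overlap (exact p = 0.0571, adjusted 0.188), and with families counted once in all 64.4 ± 25.2 and 188 ± 79.9, also without overlap. The counts were 2, 2 and 3 of 32, 30 and 26 families with Aph, and 15, 15, 6 and 10 of 76, 71, 25 and 55 with Aph + ART558.

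Ccser1 held 38 of the 118 Aph + ART558 reads and 13 of the 46 families in chromosome 6 RDC genes, against 0 of 15 reads and 0 of 7 families with Aph. It lies past the cut, 8.57 Mb away. Ccser1 (chr6:61180324-62382865, plus strand), a coiled-coil serine-rich protein gene, had 0, 0 and 0 reads in the Aph libraries and 9, 16, 9 and 4 in the Aph + ART558 libraries. The families counted in the gene were 4, 3, 2 and 4, which are 8 different families over the 7 libraries. Some of these families were thus in several Aph + ART558 libraries.

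Ctnna2, Snd1 and Cacna1c each held fewer read families than Ccser1. Ctnna2 (chr6:76881637-77979699, minus strand), the alpha N-catenin gene on the bait side of the cut, had 0, 2 and 5 reads with Aph and 4, 8, 3 and 1 with Aph + ART558, and 0, 2 and 1 families against 2, 3, 1 and 1. Snd1, a nuclease domain protein gene, had 0 reads in each Aph library and 1, 9, 1 and 1 with Aph + ART558, from 2 different families. Cacna1c, the L-type calcium channel subunit gene, had 0 reads in each Aph library and 1, 8, 1 and 0 with Aph + ART558. Its family counts with Aph + ART558 were 1, 1, 0 and 0, of 1 family. Of the 12 genes, 9 held a junction.

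**Figure D5:**
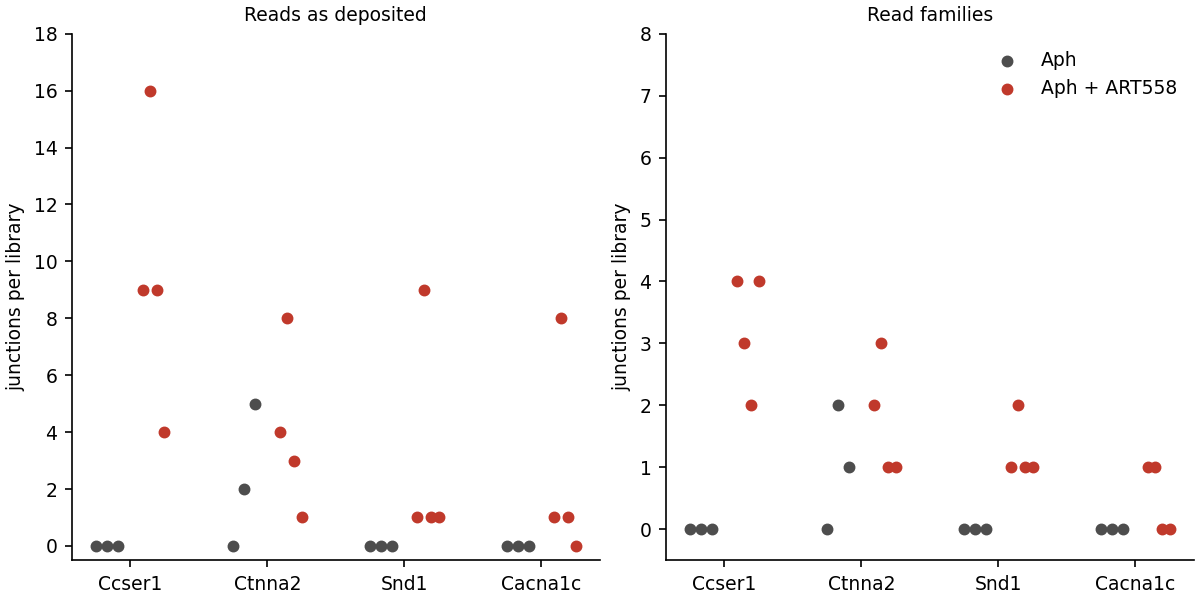
Junctions per library (y axis) in 4 RDC genes of chromosome 6, as reads (left) and as read families (right). Points are libraries. Ccser1 has 4 to 16 reads and 2 to 4 families in each Aph + ART558 library and 0 in each Aph library.

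Across the genome, 78 protein-coding genes held at least 10 translocation reads over the 7 libraries, and the ranges per 1000 translocations did not overlap in 3 of them (3.85%). Ccser1 and Snd1 were the higher ones with ART558 (2.56%), and Cradd, a death-domain adaptor gene, was the lower one (1.28%), at 9, 1 and 1 reads with Aph and 0 in each Aph + ART558 library. All 3 reached 10 reads through the group where they were higher and had 0 reads in the other, so the minimum itself admitted them and their count is a description. The Snd1 reads were 2 different families found in several Aph + ART558 libraries. Among the 16 RDC genes with that many reads, Ccser1 and Snd1 were the 2 without overlap (12.5%), under the same limit. Among the same 78 genes, 6 did not overlap in families (7.69%).

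In RDC genes on other chromosomes few families were counted. A family is counted at its most frequent junction, so some reads below belong to families counted elsewhere. Sgcd, the delta-sarcoglycan gene, had 14, 1 and 0 reads with Aph and 0, 0, 1 and 2 with Aph + ART558, and its 8 families were all in Aph replicate 1. Dcc, the netrin receptor gene, had 0, 0 and 6 reads against 6, 1, 1 and 7. Its family counts were 0, 0 and 2 against 0, 1, 0 and 1, of 3 different families. Cadm2, a cell adhesion gene, had 0 reads in each Aph library and 8, 4, 0 and 1 with Aph + ART558, with 3 different families counted. Ptprk, a receptor phosphatase gene, had 0 reads in each Aph library and 1, 0, 9 and 2 with Aph + ART558, with 1 family counted. Naaladl2, a peptidase-like gene, also had reads with Aph + ART558 alone, at 2, 1, 0 and 8. Its family counts there were 0, 1, 0 and 1, of 1 family.

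The other named genes also had few families counted in them, and some of their reads belonged to families counted elsewhere. Adgrl3, a latrophilin receptor gene, had 1, 0 and 0 reads against 1, 2, 0 and 9, with 3 families counted, all with Aph + ART558. Ptprd, a receptor phosphatase gene, had 2, 0 and 0 against 2, 1, 10 and 1. Its family counts were 0, 0 and 0 against 2, 0, 1 and 1, of 2 families. Il1rapl1, a synaptic adhesion gene, had 0, 1 and 1 reads against 2, 4, 4 and 1. Its family counts were 0, 0 and 0 against 1, 0, 2 and 1, also of 2 families. Dpp10 had 0, 2 and 0 against 0, 1, 0 and 9, and Pcdh11x, a protocadherin gene, 0, 0 and 5 against 2, 8, 0 and 0, each from 2 families. The reads of Efna5, an ephrin ligand gene, at 0, 0 and 2 against 2, 0, 6 and 4, and those of Csmd1, at 0, 0 and 2 against 0, 0, 4 and 1, belonged to families counted elsewhere, at the position most of their reads had. Lsamp, a limbic system adhesion gene that the study treats as an RDC in these cells, is not on the list used here. It had 1, 8 and 0 reads against 9, 0, 0 and 0, with 4 families counted. In each of these genes the ranges overlapped, and a single library held most reads of several, such as Dpp10, Ptprd and Adgrl3.

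The places with the most distinct junctions were few, and their ranges overlapped. Gm10800 (chr2:98666547-98667301) had 10, 18 and 20 reads with Aph and 36, 21, 40 and 29 with Aph + ART558, and Gm21738 (chr14:19415857-19418930) had 18, 36 and 42 against 32, 12, 26 and 26. Per 1000 translocations Gm10800 was at 13.998 ± 8.55 and 21.2 ± 3.10, and Gm21738 at 27.9 ± 17.5 and 15.6 ± 1.92, with overlap in both. Of the 10 bins of 1 kb with most distinct junctions 5 lay at these genes, each with junctions in all 7 libraries. Cdh23, the cadherin 23 gene, had 6, 8 and 8 reads against 5, 10, 5 and 8, and all 50 in its leading bin followed a run of G and counted as insertions. The leading bins of Col4a6 and Phf21a held telomeric reads (100% and 96.9%). No bin among the 10 leading ones held the guide with fewer than 9 mismatches beside an NGG within 100 bp.

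Whether ART558 acted alike at the chromosome 6 and chromosome 14 baits was tested on 6 measures by permuting labels within each bait. The inverted share differed by -0.373 points at the chromosome 14 bait (3.06 ± 1.001% and 2.68 ± 0.728%, n = 4 each) and by -6.96 points at the chromosome 6 bait, and the difference between the baits was -6.59 points (exact permutation p = 0.0433, adjusted over the 6 0.260). In families the difference was -3.52 points (exact p = 0.0265, adjusted 0.0678). Direct joining in translocations differed by 1.49 points at the chromosome 14 bait and by -5.24 points at the chromosome 6 bait in reads (exact permutation p of the difference = 0.173). In families these were 0.998 and -4.09 points (exact p = 0.0212, adjusted 0.0678). The share on other chromosomes differed by 1.13 points at the chromosome 14 bait and by -7.55 points at the chromosome 6 bait in families (exact p = 0.0339, adjusted 0.0678). None of these passed 0.05 after adjustment, and mean micro-homology, insertions and full-length bait ends had unadjusted p of 0.138 or more in families. A further 6 measures were compared between the baits outside that set and are given unadjusted. In families, deletions of 200 bp to 10 kb differed by 2.30 points at the chromosome 6 bait and -1.29 points at the chromosome 14 bait (exact permutation p = 0.00163), and deletions under 200 bp by 1.66 and -0.813 points (exact p = 0.0445). In reads the same differences had exact p of 0.110 and 0.307. The bait-side share rose at both baits, by 1.47 points at chromosome 6 and 1.82 points at chromosome 14 in reads (exact permutation p of the difference = 0.752). In families it rose by 2.67 and 1.03 points (exact p = 0.262). Direct joining and insertions within 1 Mb and bait-end loss in translocations had exact p of 0.284 to 0.897 in reads and 0.481 to 0.868 in families. At the chromosome 14 bait alone, both deletion classes differed in families with an exact permutation p of 0.0286 each. The baits also differ in how many reads each family holds. Families were formed over all 7 libraries together at the chromosome 6 bait and within each library at the chromosome 14 bait.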

How the data were processed

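The deposited tables hold 1 row per junction, as the authors' pipeline wrote it: reads were aligned with Bowtie2 within TranslocWrapper to mm10 (build per the submitters' processing notes), and each row gives the prey position and strand, the alignment ends in the read, and the read. The values used are positions and alignment ends in bases, which the authors deposited without normalization. All deposited rows were counted, repeated junctions included. The libraries carry no molecular identifiers, so intervals cover counting error only. The study's reporting summary speaks of biological repeats for the wild-type cells. The labels do not say whether these were separate cultures or embryos, so p-values measure the spread between these libraries, which may be technical.

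Rows placed outside the 19 autosomes and the sex chromosomes were left out, 0.754% to 2.87% of a library. Micro-homology was computed from the alignment ends. Genes were taken from GENCODE M21. Groups were compared with two-sided exact permutation tests over libraries, doubling the smaller tail, with Benjamini-Hochberg adjustment. The baits were compared on the absolute difference by permuting labels within each bait (2450 permutations). Read families were built by comparing up to 25 bases after the bait with 3 mismatches allowed. Where only a short stretch of at least 12 bases was shared, 1 mismatch was allowed. Each family was counted at its most frequent junction. Families were chosen as a counting after the data were seen. The scripts were tested on simulated data. Python 3.11.15, NumPy 2.4.6, pandas 2.3.3, SciPy 1.17.1 and Matplotlib 3.10.9 were used.

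The members and lists were chosen with earlier results of these data known. Genes were named by rule: those the study draws for this bait and Lsamp, the gene nearest the cut, the 5 RDC genes with the highest and the 5 with the lowest ratio among those with at least 10 junctions, and the 5 protein-coding genes with most distinct junctions. 1 gene of this rule is not reported here. Cradd and the other chromosome 6 RDC genes fall outside it or were named after their values were seen. Alternatives were counting each distinct junction once, a 10 kb window, other denominators, other chromosomes alone, genes with 100 kb on either side, the replicate number as a block, and leaving out each library.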

Additional observations from a re-analysis of the deposited data

Results flagged for a closer look

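In translocation reads, 8 bp of micro-homology held 8.17% in Aph + ART558 replicate 2, far from the other 3 libraries of its group (gap over range 0.950). Of its 53 reads with 8 bp, 49 (92.5%) were of 1 read family. Within 1 Mb, 10 bp of micro-homology held 0.469% in Aph + ART558 replicate 4, which is 1 read, and 0 in the other libraries of the group. These were the 2 libraries set apart among 49 results looked at, and chance sets apart about 1 in 20.

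The inverted share within 10 kb past the cut differed between the baits by -6.59 points in reads (exact permutation p = 0.0433, adjusted over 6 measures 0.260). The value at the chromosome 6 bait rests on 1 to 3 read families per library.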

How the results depend on the processing

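Values here are differences, Aph + ART558 minus Aph, in percentage points unless a unit is given. With families counted once per library, chosen after seeing the data, the sign turned for mean micro-homology (-0.0702 bp), 2 to 4 bp (3.75), 5 to 10 bp (-1.77), insertions in translocations (-5.88), their difference from the chromosome 14 bait (-5.98) and the bait-side median distance (242 bp). With families counted once in all it turned for mean micro-homology (-0.00473 bp), 2 to 4 bp (4.20), 5 to 10 bp (-1.37), direct joining within 1 Mb (-5.91), insertions in translocations (-0.0575), full-length bait ends of translocations (-2.80), CTR density (-0.107 per 1000 and Mb) and the bait-side distance (352 bp). Without telomeric, dinucleotide and G-run families it turned for mean micro-homology (-0.0248 bp), 2 to 4 bp (3.11), 5 to 10 bp (-0.960), insertions (-4.01) and CTR density (-0.0172). Insertions turned within 10 kb (-0.689), and gene bodies with distinct junctions (-0.733). Against the chromosome 14 bait, direct joining (-5.09) and other chromosomes (-8.67) reached an unadjusted exact p under 0.05 in families, and the inverted share (-4.94) lost it with distinct junctions. In translocations, lengths that did not overlap were 1 and 2 in the family countings (0 in reads), and genes were 1 with distinct junctions and 6 in families (3 in reads). The cause was not tested.

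Same-numbered libraries deviated together at 2 of 3 numbers (correlations -0.330, 0.288 and 0.824 for replicates 1 to 3), not at each, so the numbers were not taken as pairs. With the replicate block, direct joining differed by -4.40, and insertions turned in translocations (-1.76) and within 1 Mb (-0.720).

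Leaving out each library gave ranges that crossed 0 for mean micro-homology (-0.0728 to 0.197 bp), 2 to 4 bp (-6.34 to 2.14), 5 to 10 bp (-0.116 to 3.62), insertions in translocations (-2.15 to 4.96) and within 1 Mb (-0.720 to 0.979), chromosome 6 beyond 1 Mb (-0.889 to 1.65), bait-end loss in translocations (-1.72 to 2.93 bp), gene bodies (-1.09 to 2.34) and bait-side distance (-158 to 42.4 bp). Direct joining in translocations ranged from -7.87 to -0.455 and the inverted share from -9.59 to -2.82, the nearest to 0 in each without Aph replicate 1.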
